A study of Mus musculus with 6 samples.

Results

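The Id family comprises the 4 genes Id1, Id2, Id3 and Id4, out of 21755 protein-coding genes of the GENCODE annotation (release M21, GRCm38) on chromosomes 1 to 19 and X. The genes were taken by name. H3K4me1, a histone methylation typical of enhancers, had been mapped by CUT&Tag in wild-type whisker pads of B6/J2 mice at embryonic day 12, with no treatment named. Of 6 samples, 3 used an antibody against H3K4me1 and 3 used IgG, the latter not analysed here, which leaves the values without a control measurement. The 3 H3K4me1 samples carry the pad numbers of their titles as replicates 1, 2 and 3. Nothing states whether the pads came from separate embryos, so spreads between them may be technical in part. For replicates 2 and 3 the source name is adult kidney although the title is whisker pad. Of 12 facial mesenchyme markers, 12 carried a peak in each of the 3 replicates, whereas 3, 3 and 2 of 12 adult kidney markers did in replicates 1, 2 and 3. Over all protein-coding genes, 24.9, 22.6 and 19.6% carried one. Both marker lists were chosen with earlier results of these data known, so the counts are no independent check of the tissue.

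Id proteins, the inhibitors of DNA binding, are helix-loop-helix proteins without the basic stretch that touches DNA. They pair with the widely expressed E proteins and so keep these from forming dimers with tissue-restricted basic helix-loop-helix factors such as Twist1 or Myf5. Transcription of Id genes is a classic early response to BMP signalling, relayed by Smad proteins, and Id genes serve as readouts of that pathway. BMP ligands take part in the patterning of hair and whisker placodes.

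Each Id gene is short. Id1 (chr2:152736251-152737410, plus strand) spans 1160 bp, Id3 (chr4:136143497-136145755, plus strand) 2259 bp, Id2 (chr12:25093799-25097140, minus strand) 3342 bp and Id4 (chr13:48261228-48266026, plus strand) 4799 bp. A peak was counted for a gene when it overlapped the gene body or the 5 kb on either side, or when its highest pileup lay up to 300 kb from a start site of that gene and nearer to it than to any other protein-coding start site. The bases that could be given to a gene in this way are called its territory. The territory was 33.6 kb for Id1, which lies between Mcts2 and Cox4i2, and 59.5 kb for Id3, between Rpl11 and E2f2. It was 322.1 kb for Id2 and 422.9 kb for Id4, which border large stretches without protein-coding start sites, the next start site lying 1318.0 kb upstream of Id2 and 1067.4 kb upstream of Id4. The median territory over all protein-coding genes was 54.8 kb.

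The strongest Id region present in all replicates is shown for each gene by the 200 bases centred on the median position of the highest pileup, read 5′ to 3′ on the strand of the gene from GRCm38. They are printed because the median of the 3 pileup positions falls there. The highest pileup itself lay outside the stretch in replicate 1 for Id2 and in replicate 3 for Id4. Capitals mark matches, on either strand, to 5 short motifs, namely CANNTG (the E-box bound by basic helix-loop-helix dimers), GGCGCC and CAGACA (bound by Smad proteins), CTTTGA (the core bound by Lef1 and other TCF factors) and TAATTA (a homeodomain core). Matches in the printed stretches did not overlap each other.
Id1, chr2:152729879-152730078, plus strand: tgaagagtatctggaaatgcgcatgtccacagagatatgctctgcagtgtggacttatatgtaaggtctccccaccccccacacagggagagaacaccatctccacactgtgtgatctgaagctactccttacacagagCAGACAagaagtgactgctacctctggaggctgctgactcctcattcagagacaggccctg
Id2, chr12:25125655-25125854, minus strand: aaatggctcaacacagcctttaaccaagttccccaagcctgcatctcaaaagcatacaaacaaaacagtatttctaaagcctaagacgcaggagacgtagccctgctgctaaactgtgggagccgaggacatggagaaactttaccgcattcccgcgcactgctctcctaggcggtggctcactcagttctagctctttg
Id3, chr4:136142075-136142274, plus strand: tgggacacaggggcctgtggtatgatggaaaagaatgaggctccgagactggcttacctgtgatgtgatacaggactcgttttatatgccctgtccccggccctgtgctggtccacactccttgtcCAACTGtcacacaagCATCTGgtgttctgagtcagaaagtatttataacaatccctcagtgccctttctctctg
Id4, chr13:48130906-48131105, plus strand: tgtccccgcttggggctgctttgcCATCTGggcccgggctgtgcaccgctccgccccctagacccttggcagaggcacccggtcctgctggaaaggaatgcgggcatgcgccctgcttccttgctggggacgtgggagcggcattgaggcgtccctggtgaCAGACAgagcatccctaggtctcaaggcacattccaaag

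The stretches of Id1, Id2 and Id3 overlapped no annotated gene. That of Id4 lay in introns of the noncoding genes A330033J07Rik and Gm36346, both on the minus strand. The Id3 stretch held 2 E-box letters, starting at bases 127 and 142, and the Id4 stretch held 1 at base 25. CAGACA or its complement started at base 140 in the Id1 stretch and at base 162 in the Id4 stretch, and the Id2 stretch held 0 of the 5 motifs. Among the windows of 8916 of the 8917 regions present in all replicates, 68.4% held CANNTG, 21.8% CAGACA, 11.8% CTTTGA, 2.50% TAATTA and 1.58% GGCGCC. A match is a match of letters and was not tested as a binding site.

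Peaks stood over the body or 5 kb flanks of 3 of the 4 Id genes in every replicate, but not of the same 3. The genes were Id1, Id2 and Id3 in replicates 1 and 2, and Id1, Id3 and Id4 in replicate 3. Over all protein-coding genes, 24.9, 22.6 and 19.6% had such a peak in replicates 1, 2 and 3. Id1 and Id3 had one in all 3 replicates, as did 15.5% of protein-coding genes and 6.82% of the 4062 with a body of up to 5 kb, the size class of the Id genes. When distal peaks were added, all 4 Id genes had at least 1 peak in each replicate, against 19.8% of protein-coding genes. That share is not matched for territory, and 91.6 and 95.8% of genes had a smaller territory than Id2 and Id4. The number of Id peaks was 12 in each replicate, of lists with 16788, 12969 and 13998 peaks. Merging the 36 peaks gave 14 regions. Peaks of all replicates met in 8 of them, those of 2 replicates in 1, and 5 rested on a single replicate. This is 57.1% in all replicates, beside 46.3% of all 19251 merged regions.

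**Figure D1:**
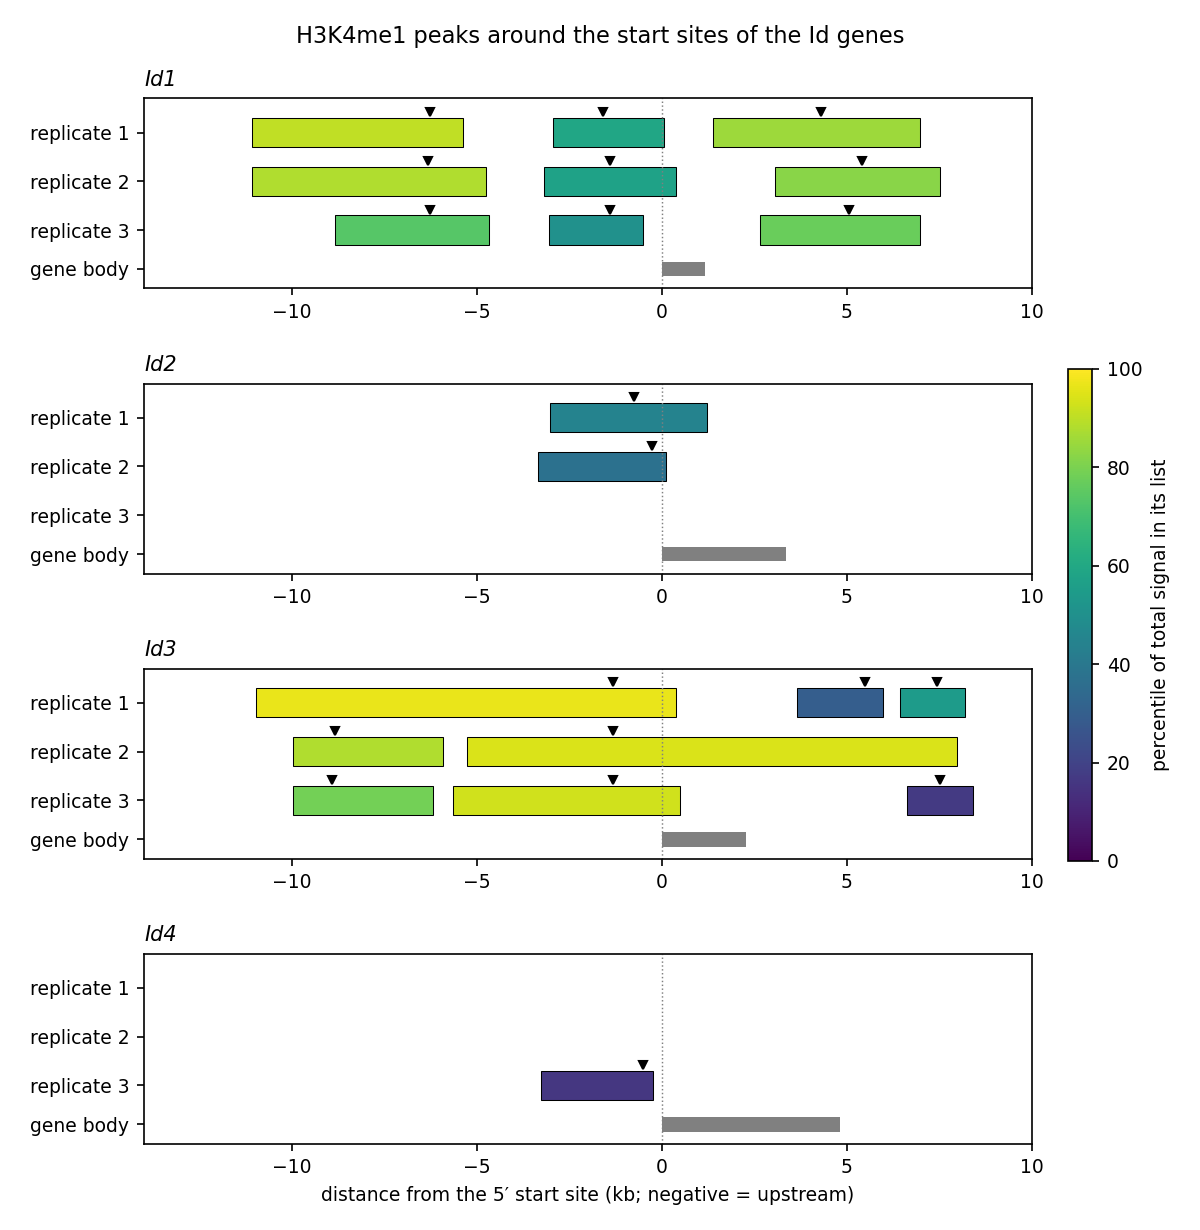
H3K4me1 peaks from 14 kb upstream to 10 kb downstream of the 5′ start site of each Id gene, in kb, with 1 row per replicate; boxes are peaks coloured by the percentile of total signal in their own list, triangles mark the highest pileup and grey bars the gene body. Id1 and Id3 have peaks on both sides of the start in all 3 replicates, Id2 has a peak over the start in replicates 1 and 2, and Id4 has one that ends before the start, in replicate 3 only.

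Id1 was flanked by 3 regions, each present in all replicates. The first, upstream, ran from 11.1 to 4.7 kb before the start site. Its peak had a length of 5691 bp and a total signal of 98855 in replicate 1, 6336 bp and 131503 in replicate 2, and 4171 bp and 56525 in replicate 3. Total signal is the pileup of fragments summed over the bases of a peak and is not scaled to depth, so peaks were compared by their percentile within their own list. These percentiles were 90.6, 88.1 and 73.8, a mean of 84.2 ± 9.05 (SD, n = 3). Replicate 3 stood below the other replicates.

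The highest pileup of this region lay 6273, 6326 and 6270 bp upstream of the Id1 start, a spread of 56 bp. Over the 8917 regions in all replicates the median spread was 531 bp, and 13.9% had a smaller one. The stretch of Id1 printed above is centred there.

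The second Id1 region, from 3.2 kb before to 0.4 kb after the start, was weaker, at percentiles 59.2, 57.7 and 50.3. Its peak covered the start site in replicates 1 and 2, where it ended 56 and 389 bp into the gene, and stopped 526 bp before the start in replicate 3. The highest pileup lay upstream of the start in each replicate, by 1593, 1402 and 1403 bp. The third region began after the end of the gene in each replicate and reached 7.5 kb downstream, at percentiles 85.2, 82.3 and 77.1. Of the Id1 body itself, 4.9, 33.6 and 0.0% was covered in replicates 1, 2 and 3. Id1 thus had at least 2 separate peaks that overlapped its body and 5 kb flanks in every replicate. This was met by 23 (0.566%) of the 4062 genes with a body of up to 5 kb. Only 277 of those 4062 genes had any such peak in all replicates.

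Id3 carried the strongest H3K4me1 peak of the family by total signal. The main peak was 11352 bp long with a total signal of 190883 in replicate 1, 13247 bp with 209438 in replicate 2, and 6130 bp with 120840 in replicate 3. Ranked by total signal, it reached percentiles 96.8, 94.2 and 92.7, giving a mean of 94.6 ± 2.05 (SD, n = 3), or at 6.91, 4.67 and 3.44 times the median peak of its list. The lowest of these percentiles was above the highest of any other Id gene, 90.6 for Id1. Among regions in all replicates, 7.07% had a mean percentile at least as high.

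All 3 replicates placed the highest pileup of Id3 at the same spot, 1323, 1323 and 1317 bp upstream of the start, over the Id3 stretch printed above. This spread of 6 bp was smaller than that of most regions in all replicates, 5.54% of which had a smaller one. The maximum pileup was 85, 79 and 77, whereas the upstream Id1 peak, shorter in each replicate, reached 133, 129 and 70. Divided by length, the main Id3 peak stood at percentiles 88.0, 67.9 and 94.1, a mean of 83.3 ± 13.7. The strongest Id1 peak by total signal, which in replicate 3 was the one downstream of the gene, stood at 89.3, 85.6 and 77.0. Its mean was 83.9 ± 6.29. Per base, Id1 was thus the higher in replicates 1 and 2 and Id3 in replicate 3. The lead of Id3 in all replicates held for total signal only. The start site of Id3 was covered in 3 of 3 replicates. Among genes with a body of up to 5 kb and a peak in all replicates, 27.8% had the start covered in each.

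The edges of the Id3 peaks differed between replicates. In replicate 1 a single peak ran from 10963 bp upstream to 388 bp past the start. In replicates 2 and 3 the same stretch was divided, with a separate peak from 9982 bp upstream at percentiles 88.0 and 78.6. Downstream, replicate 2 had 1 continuous peak to 7986 bp that covered the gene body in full. Replicates 1 and 3 covered 17.2 and 21.0% of the body and had separate weaker peaks beyond it, at percentiles 29.5 and 54.6 in replicate 1 and 17.0 in replicate 3. All 8 peaks merged into a single region of 19380 bp. With peaks less than 1 kb apart joined, the mean number of Id3 peaks was 1.67 in place of 2.67. The snRNA gene Gm26001 also lay in this region.

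Id2, like Id4, had its strongest peak farther from the start, by highest pileup, than Id1 and Id3 in each replicate. A region 31.4 to 25.8 kb upstream of the 5′ start, over no annotated gene, had a peak in each replicate, with lengths of 5042, 5604 and 4472 bp and total signals of 73090, 100781 and 75555. Its percentiles were 84.9, 81.9 and 83.2, with a mean of 83.4 ± 1.53 (SD, n = 3), the smallest spread among the Id regions in all replicates. The highest pileup was at the same 3 bases in replicates 2 and 3, 28614 bp upstream, and at 27457 bp in replicate 1. The Id2 stretch printed above is the one shared by replicates 2 and 3.

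At the Id2 start the signal was lower. A peak of 4229 bp in replicate 1 and 3468 bp in replicate 2 stood at percentiles 44.6 and 37.2, and replicate 3 had none within 26.4 kb upstream. Id2 has 3 annotated protein-coding start sites, of which the peak of replicate 1 covered all 3 and that of replicate 2 only the one farthest upstream. The promoter given by RefSeq for Id2, from 250 bases before to 50 after the start site at 25096092, was covered in full in replicate 1 and by 0.0% in replicates 2 and 3. The region at the start had a GC content of 53.0%, beside a median of 47.3% for regions in all replicates. Whether GC content bears on its absence from replicate 3 was not tested.

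**Figure D2:**
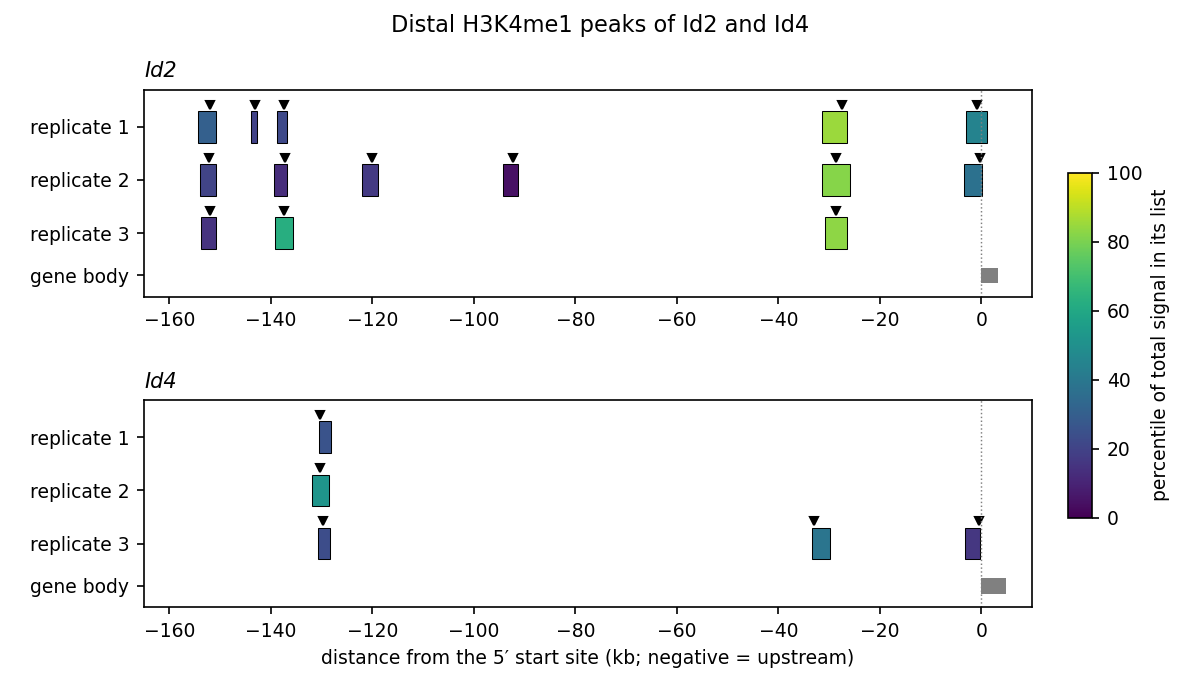
H3K4me1 peaks of Id2 and Id4 across their upstream side and up to 10 kb downstream of the 5′ start site, in kb, with 1 row per replicate; boxes are peaks coloured by the percentile of total signal in their own list, triangles mark the highest pileup and grey bars the gene body. The region of Id2 from 31.4 to 25.8 kb upstream is present in all replicates at percentiles of 81.9 to 84.9, and Id4 has a single region in all replicates, from 131.8 to 128.2 kb upstream.

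Farther upstream of Id2 lay 5 regions between 154.3 and 91.2 kb from the start, of which 2 were present in all replicates. The region from 154.3 to 150.8 kb stood at percentiles 30.4, 20.3 and 14.7. The region from 139.4 to 135.7 kb stood at 22.0, 12.8 and 62.8, so that replicate 3 was far above the others, with a log2 ratio of 1.10 between its share of list signal and that of replicate 2. Its GC content was 45.8%. The other 3 regions had a peak in a single replicate each, at percentiles of 4.50 to 19.8, and 1 of them overlapped the noncoding genes Gm36287 and Gm47705. No Id2 peak lay downstream of the gene body.

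Id4 had the weakest mark of the family. Its only region in all replicates lay 131.8 to 128.2 kb upstream, at percentiles 25.7, 52.3 and 23.3, a mean of 33.8 ± 16.1 (SD, n = 3). The highest pileup lay 130223, 130267 and 129653 bp upstream, the last outside the Id4 stretch printed above. The peaks were 2284, 3286 and 2341 bp long, with total signals of 18980, 46615 and 24430. Replicate 2 was the highest of the 3, and 86.9% of regions in all replicates had a mean percentile at least as high as this region. The other 2 Id4 regions had a peak in replicate 3 only, 1 from 33.3 to 29.8 kb upstream at percentile 38.7 and 1 from 3281 to 244 bp upstream of the start at percentile 15.7. The 5′ start of Id4 was covered in 0 of 3 replicates. Since lists hold the top 1% of signal blocks, the mark may be present, at a lower level, where no peak was listed.

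Promoter sequences were matched in RefSeq (GRCm38.p6) for Id2, Id3 and Id4, and not for Id1. The promoter window of Id3 was covered in full in all replicates, but it lies within the 5′ untranslated part of the GENCODE transcript and is therefore not printed. For Id2 and Id4 the bases before the RefSeq start site that lie in no exon of the gene are given, because these promoter windows were covered in replicate 1 only for Id2 and, by 39.7%, in replicate 3 only for Id4. They are read 5′ to 3′ on the strand of the gene, and capitals mark the same motifs as above.
Id2, chr12:25096254-25096342, minus strand: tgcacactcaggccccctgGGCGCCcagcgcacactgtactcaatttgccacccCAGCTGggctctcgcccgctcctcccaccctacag
Id4, chr13:48260866-48261115, plus strand: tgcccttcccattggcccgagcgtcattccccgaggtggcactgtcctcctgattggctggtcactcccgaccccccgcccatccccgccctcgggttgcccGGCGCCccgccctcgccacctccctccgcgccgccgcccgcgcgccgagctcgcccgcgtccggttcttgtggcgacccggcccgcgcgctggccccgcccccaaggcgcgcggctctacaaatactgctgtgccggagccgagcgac

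The Id2 bases lie in an intron of the longer Id2 transcript, and the Id4 bases in introns of the noncoding genes A330033J07Rik and Gm49291, which are on the minus strand. GGCGCC occurred once in each, starting at base 20 for Id2 and base 103 for Id4, and CANNTG once for Id2, at base 55. Over 32851 promoter windows of 300 bases, 11.9% held GGCGCC, 72.3% CANNTG, 21.0% CAGACA, 16.0% CTTTGA and 5.29% TAATTA. The Id3 promoter window held 0 of the 5 motifs. In the full Id4 window CTTTGA occurred once, after the start site. GC content was 63.3, 60.0 and 73.3% in the windows of Id2, Id3 and Id4.

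The territories differ in size, so the share of territory covered by peaks was also compared. In replicates 1, 2 and 3 it was 42.6, 42.7 and 32.9% for Id1, on average 39.4 ± 5.64% (SD, n = 3). It was 25.9, 29.1 and 19.7% for Id3, a mean of 24.9 ± 4.77%. It was 4.93, 6.50 and 3.38% for Id2, a mean of 4.94 ± 1.56%. It was 0.540, 0.777 and 2.11% for Id4, a mean of 1.14 ± 0.845%. The order Id1, Id3, Id2, Id4 held in each replicate, and no neighbours in it overlapped in their values. It is also the order of territory size, smallest first. For Id1, Id2 and Id3 replicate 3 was the lowest, whereas for Id4 it was the highest. The summed length of the assigned peaks did not follow this order. In replicates 1, 2 and 3 it was 14.3, 14.3 and 11.0 kb for Id1 and 15.4, 17.3 and 11.7 kb for Id3. For Id2 the length was 15.9, 20.9 and 10.9 kb, and for Id4 2.3, 3.3 and 8.9 kb.

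The values of different genes come from the same 3 samples and are matched by replicate. With so few samples, no test of the differences between genes was made. Over all protein-coding genes, 34.6% had any coverage, and 0.809% had a mean at least as high as Id1, 2.56% as Id3, 17.1% as Id2 and 29.0% as Id4. Among genes with a body of up to 5 kb these shares were 1.53, 3.94, 15.2 and 20.7%. Neither comparison was matched for territory size.

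**Figure D3:**
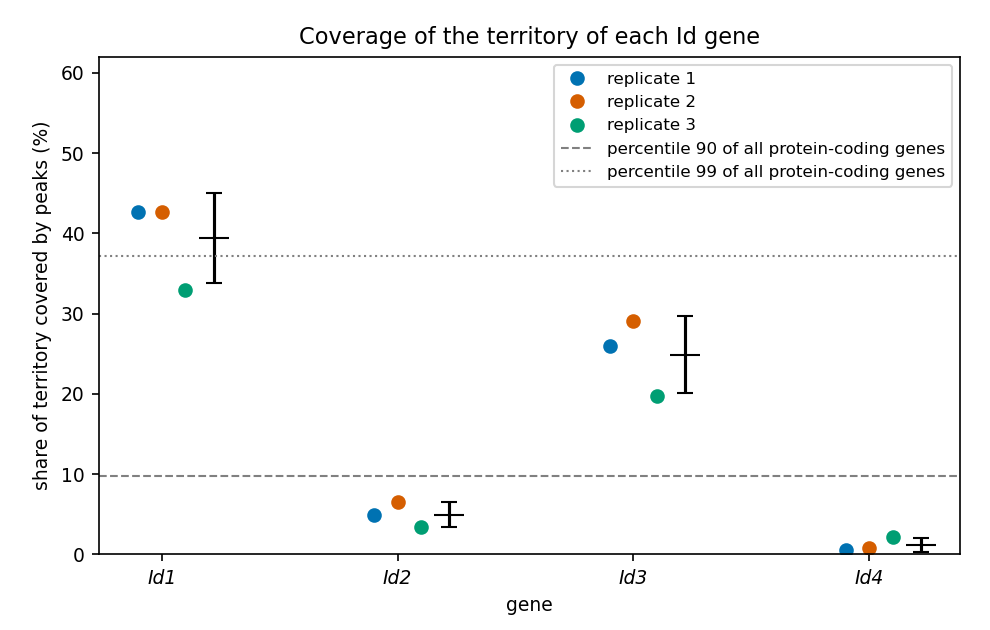
Share of the territory of each Id gene covered by H3K4me1 peaks, in %, with 1 point per replicate and the mean ± SD (n = 3) in black; the dashed and dotted lines mark percentiles 90 and 99 of the mean share over all protein-coding genes. Id1 has a mean of 39.4% and Id3 of 24.9%, both above the dashed line at 9.77%, while Id2 and Id4 lie under it in all replicates.

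By number of peaks the order was another one. Id2 had 5, 6 and 3 peaks, with a mean of 4.67 ± 1.53 (SD, n = 3), which 4.29% of protein-coding genes matched or exceeded. Id1 had 3 in each replicate and Id3 a mean of 2.67 ± 0.577. Id4 had 1, 1 and 3, a mean of 1.67 ± 1.15. The values of neighbouring genes in this order overlapped or met, so peak number did not separate them beyond the spread between replicates. Per 100 kb of territory the means were 8.94 for Id1, 4.48 for Id3, 1.45 for Id2 and 0.394 for Id4.

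By the percentile of the strongest peak, Id3 came first, with 94.6 ± 2.05. Id1 at 85.3 ± 7.18 and Id2 at 83.4 ± 1.53 could not be separated, and Id4 came last at 38.9 ± 13.3 (SD, n = 3 each). For Id1 and Id4 the strongest peak of replicate 3 lay in another region than that of replicates 1 and 2. It was the downstream Id1 region, at percentile 77.1, and the Id4 region from 33.3 to 29.8 kb upstream, at 38.7. Summed over all peaks of a gene, the signal of Id3 was 8.73, 7.58 and 5.94 times the median peak of the list. For Id1 it was 7.47, 6.37 and 4.39, for Id2 5.59, 5.53 and 4.05, and for Id4 0.69, 1.04 and 2.17. Id4 stayed under the other Id genes in each replicate.

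**Figure D4:**
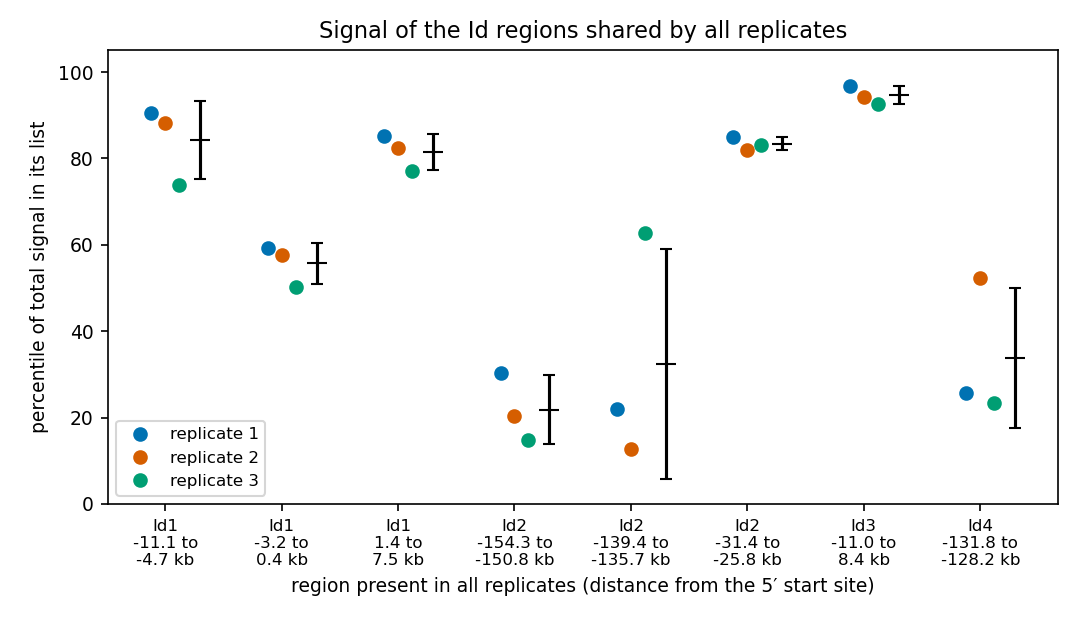
Percentile of total signal, within its own list, of the strongest peak of each replicate in the 8 Id regions present in all replicates, with 1 point per replicate and the mean ± SD (n = 3) in black; labels give the distance of each region from the 5′ start site in kb. The regions of Id1 and Id3 and the Id2 region from 31.4 to 25.8 kb upstream have all points at 50.3 or above. The other Id2 regions shown and that of Id4 have means of 21.8 to 33.8.

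Replicate 3 had the lowest share of list signal relative to replicate 2 in the upstream Id1 region, with a log2 ratio of -0.81, where GC content was 51.2%. In the Id3 region the ratio was -0.30 at 50.5% GC, and in the Id2 region from 31.4 to 25.8 kb upstream it was -0.01 at 48.8%. The ratio was 1.10 in the Id2 region of 45.8% GC, but -0.53 in the Id4 region of 46.3%. The part of GC content in these differences was not tested.

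The rest of the BMP pathway was described by the same counts. Of 29 listed genes, 21, 21 and 22 had a peak over body and 5 kb flanks in replicates 1, 2 and 3, 19 had one in all replicates and 5 had none in any. Over all protein-coding genes, of any length, the shares were 24.9, 22.6 and 19.6%, with 15.5% in all replicates. The 7 ligand genes all had a peak in every replicate. Bmp7 had the most assigned peaks among them, a mean of 13.7, and Bmp4 had 4 in each replicate. Of 7 antagonist genes, 2 had a peak in all replicates, namely Grem1 and Sostdc1. Nog, which encodes the antagonist noggin, had none over its body and flanks, but 2, 1 and 1 assigned peaks at a distance.

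Of 6 receptor genes, 3 had a peak in all replicates, among them Bmpr1a and Acvr1, beside 15.5% of all protein-coding genes. Of 4 genes for signal transducers, Smad1 and Smad5 had one in all replicates and Smad9 in none. The 5 other target and feedback genes, Smad6, Smad7, Msx1, Msx2 and Bambi, all had a peak in every replicate. Their median share of territory covered was 25.8%, with 34.9 ± 2.66% for Smad7 and 28.5 ± 3.21% for Smad6, the inhibitory Smads (SD, n = 3). The median of the 4 Id genes was 14.9% and that over all protein-coding genes was 0%. Id1 stood above each of these 5 genes and Id2 and Id4 below Msx2, at 12.6 ± 1.61%. Bambi, which encodes a decoy receptor, was at 1.90 ± 0.791%.

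Among the E proteins, the partners of Id proteins, Tcf4 had 20, 12 and 18 assigned peaks and Tcf12 had 2, 1 and 3, while Tcf3 had 0 in each replicate. These counts are not matched for territory, which was 725.6 kb for Tcf4, 359.5 kb for Tcf12 and 59.7 kb for Tcf3. The mean share of territory covered was 12.1, 2.40 and 0%. Of 7 tissue-restricted basic helix-loop-helix genes, 3 had a peak over body and flanks in all replicates, beside 15.5% of all protein-coding genes. These were Twist1 and Twist2, factors of facial mesenchyme, and Myf5, a factor of muscle precursors. Myod1, another factor of muscle precursors, had 0 assigned peaks in each replicate.

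Genes like each Id gene were sought over 6 values, the number of assigned peaks and their summed length in each replicate on a log2 scale, where a distance of 0 means identical values. Apob, at a distance of 0.12 from Id1, had 3 peaks in each replicate. The nearest genes to Id2 were Rassf10 (0.32) and Armc2 (0.37), for Id3 Ank (0.33) and Scd2 (0.34), and for Id4 Nr6a1 (0.29) and Csl (0.31). This likeness rests on 3 samples and on amounts alone, and no Id gene was among the 2 nearest of another.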

How the data were processed

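CUT&Tag, in which an antibody guides a transposase to a histone mark and the cut fragments are sequenced, was performed by the authors. The samples with H3K4me1 and those with IgG carry the same 3 pad numbers in their titles. Per the labels, Bowtie2 (2.3), SAMtools (0.1.19), bedtools and SEACR (1.3) were used with mm10, which is GRCm38. The treatment of duplicate reads is not given in the sources used here. The authors called peaks per replicate in stringent mode, with no IgG track, at a top fraction of 1%. The deposited signal columns hold total and maximum signal, whole numbers of pileup with no scaling to depth. The authors state a single nominal sequencing depth for the samples, mapped reads per library were not used here, and a fixed share of blocks was kept, so values were compared as percentiles within a list.

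Coordinates are 1-based. Genes and 54132 protein-coding start sites came from GENCODE M21. The members and gene lists were chosen with earlier results of these data known. Peaks overlapping by at least 1 bp were merged into regions with Python (3.11.15), and scripts were tested on simulated data. Genes named are the Id genes, their neighbours, the 2 most like each, and listed pathway genes, a few of which are not reported here. No test was made, since there is 1 group. Alternatives were the stronger 50% and the strongest 10000 peaks, joining of peaks less than 1 kb apart, other flanks (0 and 20 kb), a limit of 100 kb, other assignment, overlap and signal measures, and leaving out each replicate. Promoter bases annotated as untranslated are not printed.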

Additional observations from a re-analysis of the deposited data

How the results depend on the processing

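The 17 results had 134 values under other settings, of which 107 stayed within the limit for their kind and 27 moved past it. Some of the 107 could not move by construction, as described below. The limit was 1 SD between replicates for percentiles and coverage, and 1.5 times for numbers of peaks, regions and genes. The results given for each gene separately moved under none of the alternatives for Id1. Of these alternatives, the limit of 100 kb could not change them, since the Id1 territory spans 33.6 kb. That limit could not change the Id3 values either, with a territory of 59.5 kb. Id1 did drop out of the count of genes with a peak in all replicates when the gene body alone was used.

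With the stronger 50% of each list, Id2 had a mean of 1.33 peaks, 1 region in all replicates and 1.92% of its territory covered. Id4 had 0.333 peaks, 0 regions in all replicates and 0.259% covered, since fewer peaks entered. With the strongest 10000 peaks, Id2 had 2 peaks, 1 such region and 2.71%, and Id4 had 0.667 peaks and 0 regions. The percentile of the strongest Id4 peak could not be given under these settings, because some replicates had no peak left, and the percentiles of the other genes stay as they were by construction. Peaks up to 100 kb away left Id2 with 2 peaks, 1 region and 7.06% covered, and Id4 with 0.667 peaks and 0 regions.

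Joining peaks less than 1 kb apart gave Id3 a mean of 1.67 peaks and percentile 96.8. By maximum signal the mean percentile was 86.0 for Id2, 88.5 for Id3 and 55.3 for Id4. By signal per base of the peak it was 83.3 ± 13.7 for Id3, beside 83.9 ± 6.29 for Id1, a gap well within the spread between replicates. No Id3 region (0) had peaks of all replicates that shared at least 50% of both, since the peaks are divided at different places. With the gene body alone 1 Id gene, Id3, had a peak in all replicates. Leaving out each replicate moved the Id4 peak number between 1 (without replicate 3) and 2, and the Id3 regions between 1 and 2 (2 without replicate 1 or 2).

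No paired analysis was possible because the groups sharing pad numbers are H3K4me1 and IgG, and IgG is not analysed here. Mapped reads per library were not used here, so the level of mark below the peak threshold is unknown.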
